A study of Mus musculus with 6 samples.

Results

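The 10 genes described here encode T cell and cytotoxic lymphocyte transcripts: the CD3 chains Cd3d, Cd3e and Cd3g, the coreceptors Cd4, Cd8a and Cd8b1, the effector genes Gzmb, Prf1 and Nkg7, and Ptprc, which encodes CD45. They were taken by name from a table of 53801 genes, and each of the 10 names matched 1 row. RNA was sequenced from PDPN+PDGFRα+ stromal cells sorted from MO5 tumors, which form after subcutaneous injection of B16-OVA melanoma cells. The Ctrl group (3 libraries) came from non-transgenic, sex-matched littermates, and the DTR group (3 libraries) from ADAM12-DTR mice. These mice carry a bacterial artificial chromosome with tTA-Ires-DTR under the Adam12 promoter, so that diphtheria toxin (DT) kills ADAM12+ cells. All mice were on a C57Bl/6 background and 8 to 12 weeks old, and both groups are labelled as given DT. The study's methods give 100 ng of DT per day for ADAM12-DTR mice, and its start on day 10 is stated for other panels of the experiment but not for these samples. The study described the wild-type tumors as poorly infiltrated by T cells and those lacking ADAM12+ cells, here DTR, as highly infiltrated. That rests on flow cytometry and staining of tumors. The reads here come from a stromal sort with CD45+ cells gated out, and are not a measure of that infiltration. Neither the labels nor the RNA-seq methods say whether a library is 1 mouse or a pool, so the spread between libraries may be technical in part. The study's general rule is that n counts mice where nothing else is said. It also says that its datasets pool no technical replicates from separate experiments.

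T cells recognize antigen through a receptor whose variable chains signal through the CD3 chains, and CD8 or CD4 binds the MHC molecule beside it. Cytotoxic T cells and NK cells kill targets by releasing perforin, which lets granzymes such as granzyme B enter the target. CD45 is a phosphatase on the surface of all nucleated hematopoietic cells and is needed for T cell receptor signaling. For the sort, CD45+ and CD31+ cells were gated out before stromal cells were selected, so the 10 transcripts belong to cells that the gate was set to remove. Ptprc measures the gate's own antigen.

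The starts of the CD3 genes lie together on chromosome 9. The starts of Cd3g and Cd3d are 1355 bases apart and point away from each other, and Cd3e follows with its 3′ end toward Cd3d. RefSeq (GRCm38.p6) held promoters for 8 members. The stretch of up to 250 bases before the RefSeq start is shown for the CD3 genes, whose counts went together in most libraries. It is also shown for Gzmb, the member with the highest level per length. The RefSeq start of Gzmb lies upstream of the annotated start used below (56262260), so its stretch does not meet the gene as annotated. Capitals mark matches, on either strand, to TGTGGT (RUNX), AGGAAG (ETS), TGGAAA (NFAT) and TGANTCA (AP-1), as printed 5′ to 3′ on the gene's strand.
Cd3d, chr9:44981536-44981785, plus strand: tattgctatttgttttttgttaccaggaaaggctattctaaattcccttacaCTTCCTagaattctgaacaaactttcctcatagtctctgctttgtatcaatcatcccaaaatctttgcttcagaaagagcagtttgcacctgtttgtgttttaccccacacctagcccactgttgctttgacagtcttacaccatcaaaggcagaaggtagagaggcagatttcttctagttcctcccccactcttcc
Cd3e, chr9:45009628-45009861, minus strand: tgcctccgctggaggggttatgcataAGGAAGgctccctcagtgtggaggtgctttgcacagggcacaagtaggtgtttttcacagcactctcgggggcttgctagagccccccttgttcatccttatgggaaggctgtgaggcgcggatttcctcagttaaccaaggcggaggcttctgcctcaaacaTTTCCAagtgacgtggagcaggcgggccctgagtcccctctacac
Cd3g, chr9:44980432-44980681, minus strand: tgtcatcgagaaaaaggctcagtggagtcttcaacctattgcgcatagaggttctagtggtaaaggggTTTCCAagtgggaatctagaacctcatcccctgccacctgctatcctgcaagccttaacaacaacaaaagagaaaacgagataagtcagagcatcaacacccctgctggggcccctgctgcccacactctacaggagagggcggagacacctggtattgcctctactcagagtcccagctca
Gzmb, chr14:56262335-56262584, minus strand: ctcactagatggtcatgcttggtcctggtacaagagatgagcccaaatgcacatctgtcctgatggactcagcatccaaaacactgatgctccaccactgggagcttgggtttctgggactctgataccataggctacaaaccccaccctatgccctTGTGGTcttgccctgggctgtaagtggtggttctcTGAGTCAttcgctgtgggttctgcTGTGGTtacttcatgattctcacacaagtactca
Cd3d held 1 ETS match, Cd3e 1 ETS and 1 NFAT match, and Cd3g 1 NFAT match. Gzmb held 2 RUNX matches and 1 AP-1 match. Among 32851 RefSeq promoters, 250 bases each, 14.05% held the RUNX letters, 29.48% the ETS letters, 18.58% the NFAT letters and 6.749% the AP-1 letters. A match is a description of the letters and not a binding site.

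Totals ran from 22339635 to 34271929 counts per library, where a count is a read on a gene. At these depths 3 counts, taken as the limit of detection, equal 0.0875 to 0.134 CPM, a count scaled to a common library total. Every member had more than 3 counts in every library, the lowest being 8 counts of Cd4 in DTR replicate 3. Counting error only is covered by this limit. Across genes, r was 0.961 to 0.974 for libraries of 1 group and 0.953 to 0.974 for a Ctrl with a DTR library. Adam12 itself had 174 to 211 CPM in Ctrl and 113 to 165 CPM in DTR, with no overlap (log2 fold change -0.42, SE 0.154, adjusted p = 0.602, edgeR). Of all genes tested, 6.35% were lower in DTR without overlap. The sorting markers Pdgfra and Pdpn overlapped between groups. Against the label, pigment cell genes were abundant: the summed level of 10 melanoma genes was 18066 to 21973 CPM, while 10 fibroblast genes summed to 5099 to 14530 CPM.

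The counts include reads from introns. None of 176 protein-coding genes lying inside an intron of a gene on the same strand had a count (0%), against 13535 of 17745 genes (76.275%) with no such overlap. Cd3e (11.076% of its bases) and Ptprc (5.196%) overlap another gene on their strand, where reads may be lost, and the other 8 members do not. To gauge reads that need not come from a gene's own RNA, a background chosen after the data were seen was taken from 1033 olfactory receptor genes, which cover 6.624 Mb. They held 113, 173 and 151 reads in Ctrl and 283, 383 and 184 in DTR. This background was thus higher in DTR without overlap of the groups, also relative to the library totals. Its part in the members' group differences was not tested. As a rate it ran from 0.0171 to 0.0578 reads per kb. At that rate Ptprc, which spans 112848 bases, would hold 1.93 to 6.53 reads, and its counts were 143 to 402 times those numbers. Cd4, the member nearest to this background, had 12.2 to 116 times the reads that the rate gives. The 10 genes were thus counted above the olfactory background in each library. That background is a low bar. Siglech, a gene described below, had 2 counts in Ctrl replicate 1 and in DTR replicate 3, yet stood at 10.9 and 6.70 times it.

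Each member was low. As a level per length of exon, Gzmb was highest at 3.94 CPM per kb (mean of 6 libraries), followed by Nkg7 at 1.94, Ptprc at 1.77 and Cd8b1 at 1.45. Prf1 (1.15), Cd3g (1.13), Cd8a (0.879) and Cd3e (0.795) lay in the middle, and Cd3d (0.473) and Cd4 (0.344) were lowest. Because introns were counted, genes with long introns gain in this order. Per kb of genomic span, Gzmb (1.65 CPM per kb) and Nkg7 (1.51), which have short spans, were again highest, and Cd4 (0.0590) was again the lowest. Within libraries, Gzmb per kb of exon was above Nkg7 in 6 of 6. For the other 8 pairs of neighbors in the exon order the higher gene was ahead in 3 to 5 of 6 libraries, so these neighbors were not separated beyond the spread of the libraries.

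**Figure D1:**
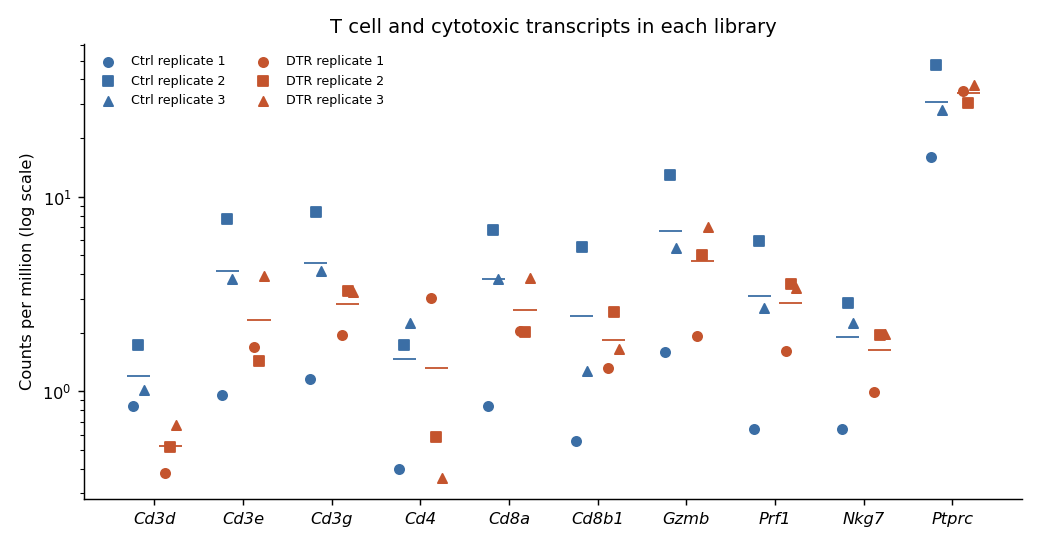
CPM (log scale) of each of the 10 genes in the 3 Ctrl libraries (blue) and the 3 DTR libraries (red), with marker shape giving the replicate and bars the group mean. Ctrl replicate 2 (blue square) is the highest library for 9 of 10 genes and Ctrl replicate 1 (blue circle) the lowest for 8 of 10, and only Cd3d separates the groups.

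Among the CD3 chains, which carry the signal of the T cell receptor into the cell, only Cd3d kept the groups apart, with all 3 DTR libraries below the lowest Ctrl library. Cd3d (ENSMUSG00000032094, chromosome 9, 44981786 to 44987339) was counted 21, 43 and 28 times in Ctrl replicates 1, 2 and 3, and 13, 16 and 15 times in DTR replicates 1, 2 and 3. The means were 1.19 ± 0.472 CPM in Ctrl and 0.524 ± 0.146 CPM in DTR (SD, n = 3 each). Its log2 fold change, DTR over Ctrl, was -1.23 (SE 0.510, 95% interval -2.41 to -0.05). With edgeR's quasi-likelihood test the p was 0.0427 before and 0.608 after Benjamini-Hochberg adjustment over 15133 genes, so the difference did not pass the threshold of 0.05. Over the alternative fits named below, its unadjusted p ran from 0.0211 (edgeR, at least 10 counts in every library) to 0.164 (edgeR, without Ctrl replicate 2). DESeq2's Wald test gave 0.0628. The two-sided exact permutation test gave p = 0.1, the smallest that 3 libraries against 3 allow. Of all genes tested, 4.11% were lower in DTR at an unadjusted p under 0.05 and 6.35% were lower without overlap of the groups, so 1 of 10 members by either measure is near that background. Without Ctrl replicate 1, 4 of 10 members (Cd3d, Cd3e, Cd3g and Cd8a) were lower at an unadjusted p under 0.05, where 3.23% of all genes tested were, and their adjusted p stayed at 0.583 or above. With CPM scaled by edgeR's TMM factors, Cd3d was again the 1 member without overlap, where 8.19% of all genes were lower and 6.31% higher without overlap.

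Cd3e (ENSMUSG00000032093, chromosome 9, 44998740 to 45009627) had 24, 192 and 104 counts in Ctrl and 58, 44 and 87 in DTR. The lowest and the highest of the 6 libraries were both Ctrl libraries. The log2 fold change was -0.88 (SE 0.709, 95% interval -2.51 to 0.76, adjusted p = 0.752, edgeR). Cd3g (ENSMUSG00000002033, chromosome 9, 44969572 to 44980431) had 29, 208 and 114 counts in Ctrl and 67, 101 and 72 in DTR. All DTR values of Cd3g fell between the Ctrl values. The log2 fold change was -0.73 (SE 0.623, 95% interval -2.17 to 0.71, adjusted p = 0.764, edgeR). Without Ctrl replicate 2 these values were -0.0019 for Cd3e and 0.11 for Cd3g, while Cd3d stayed between -1.43 and -0.82 with each library left out in turn. Without Ctrl replicate 1 the value of Cd3g was -1.19, and without DTR replicate 3 that of Cd3e was -1.44.

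The chains were not read in a constant ratio. Cd3d took 28.4% of the reads of the 3 CD3 genes in Ctrl replicate 1 (95% Wilson interval 19.4 to 39.5, 21 of 74 reads). In the other 5 libraries it took 8.62% to 11.4%. In Ctrl replicate 1, therefore, Cd3e and Cd3g were at their lowest while Cd3d was not, and the interval of that library overlapped that of no other. The Wilson intervals cover counting error only.

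CD8 is a pair of an alpha and a beta chain on cytotoxic T cells. Cd8a (ENSMUSG00000053977, chromosome 6, 71373427 to 71379173) encodes the alpha chain, which some dendritic cells also carry, and had 21, 167 and 104 counts in Ctrl and 70, 62 and 85 in DTR, for a log2 fold change of -0.57 (SE 0.657, 95% interval -2.09 to 0.95, adjusted p = 0.831, edgeR). Cd8b1 (ENSMUSG00000053044, chromosome 6, 71322788 to 71337494) encodes the beta chain, which is more restricted to T cells. It had 14, 137 and 35 counts in Ctrl and 45, 79 and 37 in DTR, with a log2 fold change of -0.45 (SE 0.773, 95% interval -2.24 to 1.33, adjusted p = 0.893, edgeR). For both genes the DTR libraries fell within the Ctrl range. Leaving out Ctrl replicate 2 turned the values to 0.20 for Cd8a and 1.02 for Cd8b1, and leaving out Ctrl replicate 1 moved them to -1.04 and -0.92.

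Cd8b1 reads made up 25.2% (95% Wilson interval 18.7 to 33.0) of the CD8 reads in Ctrl replicate 3 and 56.0% (47.8 to 64.0) in DTR replicate 2. The other 4 libraries lay between 30.3% and 45.1%. The share varied within both groups and did not separate them.

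Cd4 behaved apart from the rest. CD4 marks helper and regulatory T cells and is also found on plasmacytoid dendritic cells. Cd4 (ENSMUSG00000023274, chromosome 6, 124864692 to 124888221) had 10, 43 and 62 counts in Ctrl and 103, 18 and 8 in DTR. DTR replicate 1 was the highest and DTR replicate 3 the lowest of all 6 libraries, a spread of 8.39 times within DTR in CPM. The log2 fold change was -0.14 (SE 0.880, 95% interval -2.18 to 1.89, adjusted p = 0.970, edgeR). Without DTR replicate 1 it was -1.62. It was above 0 without Ctrl replicate 2 (0.03), Ctrl replicate 3 (0.26), DTR replicate 2 (0.21) or DTR replicate 3 (0.29), and -0.58 without Ctrl replicate 1. The interval of Cd4 is the widest of the 10 and holds a fold of 0.221 as well as one of 3.70.

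As a share of the Cd4, Cd8a and Cd8b1 reads, Cd4 made up 47.2% (95% Wilson interval 40.7 to 53.9) in DTR replicate 1 and 6.15% (3.15 to 11.7) in DTR replicate 3. In Ctrl the shares were 22.2%, 12.4% and 30.8%. The DTR libraries thus differed from each other more than the Ctrl libraries did, and both differences exceeded counting error.

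Siglech, a marker of plasmacytoid dendritic cells, had 2, 57 and 75 counts in Ctrl and 224, 27 and 2 in DTR, and its order over the libraries was close to that of Cd4. Over the 6 libraries the log2 CPM of Cd4 and Siglech correlated with r = 0.972, and Siglech stood at place 11 of 15132 genes by likeness to Cd4. With the other 9 members, Cd4 correlated with r between 0.0305 and 0.399. Siglech was chosen for this comparison after its values were seen, the points share their libraries, and no test was made. In the 2 libraries where Siglech was at 2 counts, at or under the limit of 3, Cd4 still had 10 counts (Ctrl replicate 1) and 8 counts (DTR replicate 3). The part of plasmacytoid dendritic cells in the Cd4 reads was not tested.

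**Figure D2:**
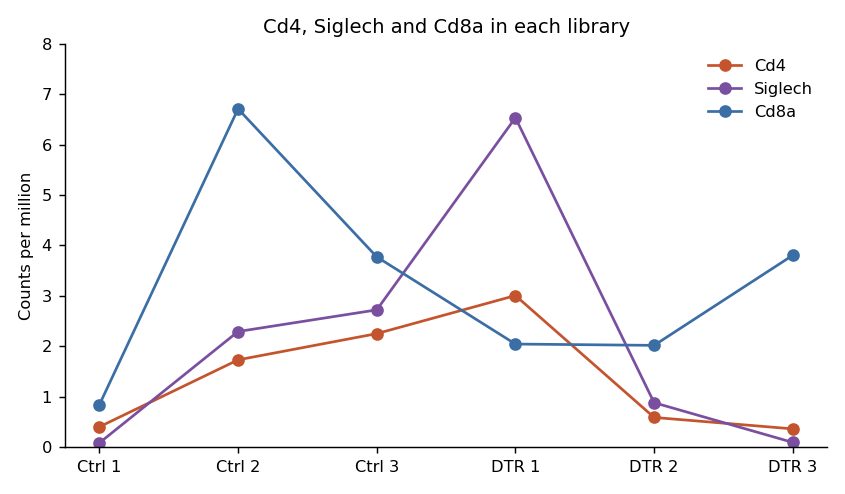
CPM of Cd4, Siglech and Cd8a in each of the 6 libraries. The lines join the values of 1 gene and give no order to the libraries. Cd4 and Siglech peak in DTR replicate 1 (103 and 224 counts), where Cd8a has 70 counts, while Cd8a peaks in Ctrl replicate 2 (167 counts).

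**Figure D3:**
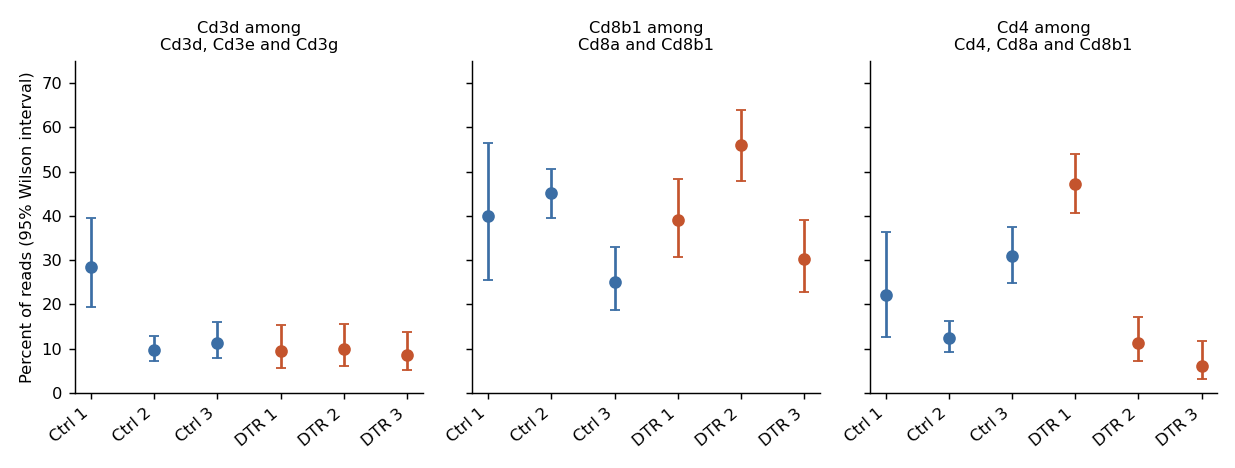
Share of reads, in percent with 95% Wilson intervals, of Cd3d among the CD3 genes (left), Cd8b1 among the CD8 genes (middle) and Cd4 among the coreceptors (right), in Ctrl (blue) and DTR (red) libraries. Cd3d stands at 28.4% in Ctrl replicate 1 alone, and Cd4 runs from 6.15% to 47.2% within DTR.

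The cytotoxic effectors had a pattern over the 6 libraries like that of Cd3g, Cd3e and the CD8 genes, and less like that of Cd3d. On log2 CPM, r was 0.939 to 0.952 with Cd3g, 0.808 to 0.916 with the CD8 genes and 0.803 to 0.892 with Cd3e. With Cd3d it was 0.434 (Prf1), 0.532 (Nkg7) and 0.654 (Gzmb). Gzmb (ENSMUSG00000015437, chromosome 14, 56258838 to 56262260) encodes granzyme B, a serine protease that triggers death of the target cell. It had 40, 322 and 151 counts in Ctrl and 66, 154 and 157 in DTR, with means of 6.67 ± 5.77 and 4.65 ± 2.57 CPM (SD, n = 3 each). Its log2 fold change was -0.57 (SE 0.717, 95% interval -2.23 to 1.08, adjusted p = 0.845, edgeR). Prf1 (ENSMUSG00000037202, chromosome 10, 61297833 to 61304680) encodes perforin and had 16, 147 and 74 counts in Ctrl and 55, 110 and 76 in DTR. For Prf1 the log2 fold change was -0.15 (SE 0.699, 95% interval -1.76 to 1.47, adjusted p = 0.960, edgeR).

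Nkg7 (ENSMUSG00000004612, chromosome 7, 43437073 to 43438249) encodes a membrane protein of cytotoxic granules. It had 16, 71 and 62 counts in Ctrl and 34, 60 and 44 in DTR, for a log2 fold change of -0.26 (SE 0.577, 95% interval -1.59 to 1.07, adjusted p = 0.920, edgeR). The DTR values of all 3 effectors fell within the Ctrl range. Without Ctrl replicate 2 their log2 fold changes were 0.41 (Gzmb), 0.80 (Prf1) and 0.19 (Nkg7), and without Ctrl replicate 1 they were -1.04, -0.63 and -0.67. Without DTR replicate 1 Prf1 stood at 0.15 and Nkg7 at 0.01.

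Ptprc was the member with the most counts and the narrowest interval, and the only one with a fold change above 0. Ptprc (ENSMUSG00000026395, chromosome 1, 138062861 to 138175708) had 399, 1186 and 771 counts in Ctrl and 1192, 933 and 834 in DTR. The means were 30.5 ± 16.0 CPM in Ctrl and 34.2 ± 3.54 CPM in DTR (SD, n = 3 each). The DTR libraries lay close together, 1.23 times apart in CPM, and within the Ctrl range, whose ends were 3.00 times apart. Its log2 fold change was 0.13 (SE 0.344, 95% interval -0.67 to 0.92, adjusted p = 0.936, edgeR), which leaves room for folds between 0.629 and 1.89. Without Ctrl replicate 1 the value was -0.18 and without Ctrl replicate 2 it was 0.65 (unadjusted p = 0.0282, adjusted p = 0.839, edgeR), in a fit where 3.02% of all genes were higher at an unadjusted p under 0.05. An offset for genomic span, added after the data were seen, gave -0.01.

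**Figure D4:**
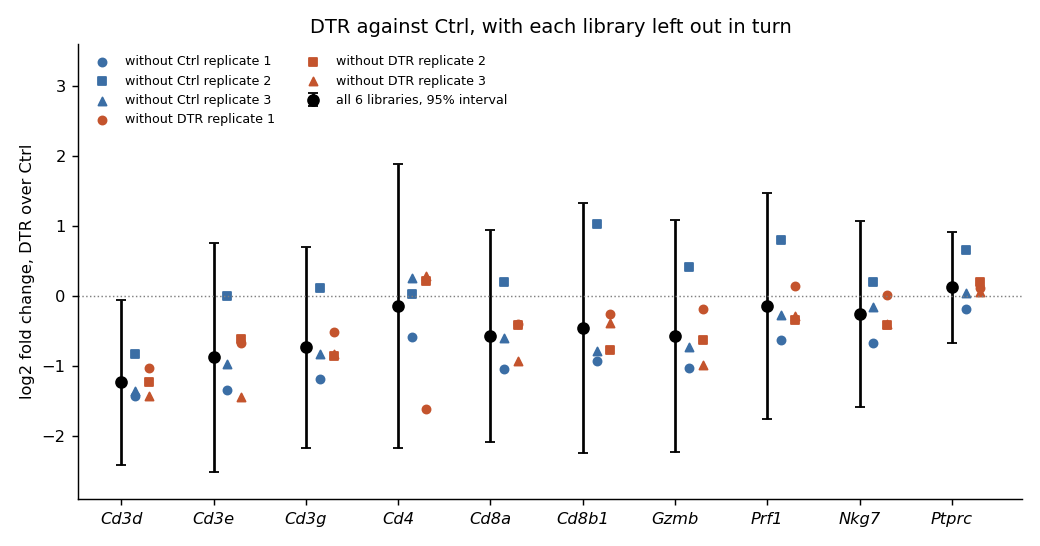
Log2 fold change, DTR over Ctrl, of each gene with its 95% interval from edgeR's fit of all 6 libraries (black), and the same value with each library left out in turn (colored). Cd3d is below 0 throughout, and 8 of 10 genes stand above 0 when Ctrl replicate 2 is left out.

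Of the 10 members, 0 were called at an adjusted p under 0.05 by edgeR's quasi-likelihood test, and the background was 0 called of 15133 genes, or 0%, with 1199 genes (7.92%) at an unadjusted p under 0.05. DESeq2's Wald test called 31 of the 20360 genes to which it gave an adjusted p (0.152%), and 0 members, with 0.819 as the members' lowest adjusted p. The fold changes of 9 of 10 members were below 0, against 50.4% of all genes tested, and their median was -0.51 against -0.0029. These genes are read from the same libraries and do not count as separate observations of the groups. That balance turned when 1 library was removed: without Ctrl replicate 2, 8 of 10 were above 0 and the median was 0.20, and without Ctrl replicate 1 all 10 were below 0, with a median of -0.98. In bulk RNA, fewer cells of a type and less RNA per cell cannot be told apart.

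For 9 of 10 members the ratio of the highest to the lowest Ctrl library was larger than the ratio of the group means in CPM. For Cd3d the ratio of the means was the larger, although on the CPM scale its Ctrl libraries (0.837 to 1.73) lay further apart than the means (1.19 and 0.524). Ctrl replicate 2 was the highest library for 9 of 10 members, against 12.8% of all genes tested, and Ctrl replicate 1 the lowest for 8 of 10, against 20.8%. The 9 genes other than Ptprc summed to 191, 1330 and 734 counts in Ctrl and to 511, 644 and 581 in DTR, or 7.61, 53.5 and 26.6 CPM against 14.9, 20.9 and 26 CPM. All DTR sums lay between those of Ctrl replicate 1 and Ctrl replicate 3. Within Ctrl, the CPM of single members other than Cd3d and Ptprc differed by 4.48 to 9.87 times between the highest and the lowest library.

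Other cell types moved with these libraries to different degrees. The summed level of 20 pan-leukocyte genes was 271, 443 and 357 CPM in Ctrl and 310, 331 and 344 CPM in DTR, with the same lowest and highest library. The 18 macrophage genes had 132, 185 and 148 CPM in Ctrl and 145 to 150 CPM in DTR. The 10 fibroblast genes had 13569, 5099 and 5509 CPM in Ctrl and 11024, 5774 and 14530 CPM in DTR, so that Ctrl replicate 2, highest for T cell transcripts, was lowest for the fibroblast sum, most of which is collagen (Col1a1, Col1a2 and Col3a1). Ctrl replicate 1, lowest for T cell transcripts, had the highest fibroblast level in Ctrl. Melanoma genes varied least of these lists, from 18066 to 21973 CPM. The part of leukocyte or fibroblast content in the members' differences was not tested.

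**Figure D5:**
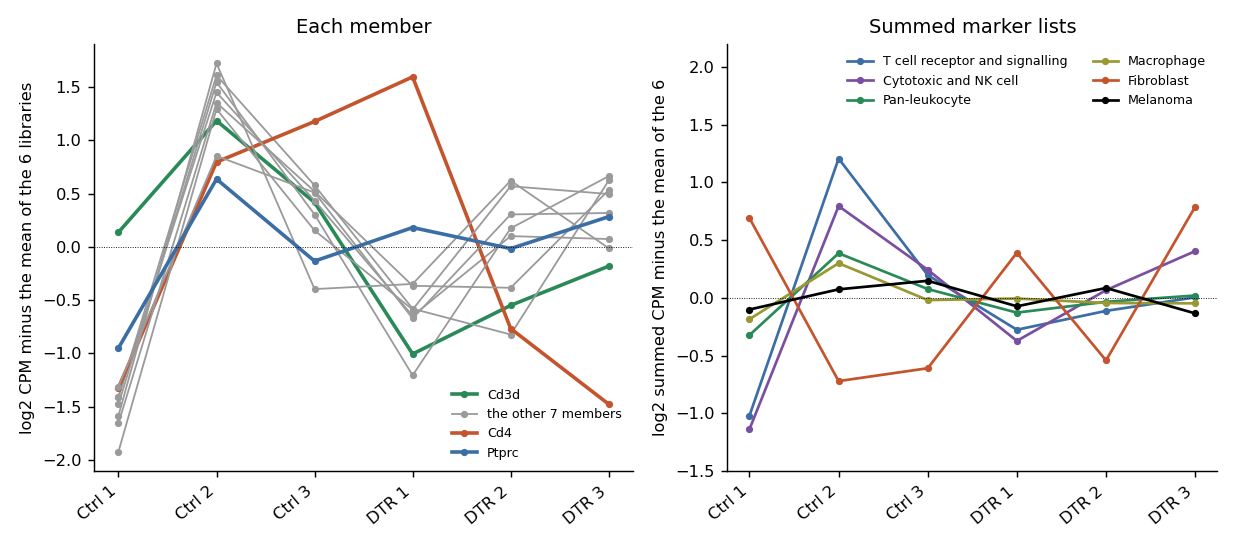
Log2 CPM of each member (left) and of the summed marker lists (right) in each library, minus the mean of the 6 log2 values. The lines join the values of 1 gene or list and give no order to the libraries. The summed T cell and cytotoxic lists span a wider range than the pan-leukocyte and macrophage lists, from Ctrl replicate 1 to Ctrl replicate 2, as do 8 of 10 members, while Cd4 is highest in DTR replicate 1 and lowest in DTR replicate 3, and Cd3d is lowest in DTR replicate 1.

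Set against leukocyte reads, the T cell transcripts still varied. Per 1000 reads of the pan-leukocyte genes, the CD3 genes had 10.9, 40.2 and 25.0 reads in Ctrl and 13, 15.8 and 22.7 in DTR. The CD8 genes had 5.15, 27.6 and 14.1 reads in Ctrl and 10.8, 13.9 and 15.9 in DTR. Gzmb, Prf1 and Nkg7 together had 10.6, 49.0 and 29.1 reads in Ctrl and 14.6, 31.8 and 36.1 in DTR. For each of these groups the DTR values lay within the Ctrl range, and Ctrl replicates 1 and 2 remained the lowest and the highest. Ptprc on this scale varied less, with 58.7, 108 and 78.3 reads in Ctrl and 112, 91.7 and 109 in DTR, and DTR replicate 1 was its highest library. Lcp1 and Ptpn6 held 40.03% to 50.85% of the pan-leukocyte reads. With these genes left out, a choice made after the data were seen, the highest Ctrl library stood 3.20 times (CD3), 4.64 times (CD8) and 4.01 times (effectors) above the lowest, against 3.69, 5.36 and 4.63 times with them. Ctrl replicate 2 was still highest, and DTR replicate 1 became lowest for the CD3 genes.

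The members' likeness over the libraries fell into the same pattern. Among the 8 members other than Cd4 and Cd3d, the 28 pairs correlated with r between 0.716 and 0.976 (median 0.892) over 6 libraries, on log2 CPM. The closest pair was Cd3e and Cd8a (0.976), followed by Prf1 and Nkg7 (0.958) and by Gzmb and Nkg7 (0.957). Cd3d correlated with these 8 at 0.229 to 0.725. The points share library and depth, and the values are a description. The 5 genes whose pattern was most like that of Ptprc were Gm40117 (r = 0.988), Psenen (0.988), Borcs6 (0.987), Carf (0.983) and Strada (0.976), and 86 of 15132 genes (0.568%) were above 0.9.

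The other genes of the pathway, from lists that do not include the members, gave similar counts. Of 25 genes of the T cell receptor and its signaling, 24 were in the table and 23 were tested. The fold change was below 0 for 20 and above 0 for 3, 0 were called, 0 had an unadjusted p under 0.05, and the median was -0.52. Without Ctrl replicate 2 the split was 12 below to 11 above with a median of -0.02, and without Ctrl replicate 1 it was 22 to 1 with a median of -0.96, and 6 had an unadjusted p under 0.05, where 8.37% of all genes tested did. Ctrl replicate 2 was the highest library for 19 of the 23. Foxp3, the transcription factor of regulatory T cells, had the lowest value, with 2, 26 and 37 counts in Ctrl and 0, 13 and 7 in DTR (log2 fold change -1.78, SE 1.19, adjusted p = 0.700, edgeR). Its groups overlapped, and 34.182% of its bases are shared with another gene on its strand. Cd28, a costimulatory receptor, had the highest value, with 4, 97 and 65 counts in Ctrl and 51, 96 and 57 in DTR (0.12, SE 0.834, adjusted p = 0.973, edgeR).

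The receptor's own constant regions were chosen for naming after their values were seen. Trac, the constant region of the alpha chain, had 15, 110 and 40 counts in Ctrl and 96, 64 and 42 in DTR. Trbc1 and Trbc2, the alternative constant regions of the beta chain, are close in sequence, so reads may be split between them. Trbc1 had 2, 35 and 40 counts in Ctrl and 13, 20 and 24 in DTR, and Trbc2 had 26, 58 and 13 counts in Ctrl and 24, 14 and 14 in DTR. The groups overlapped for all 3.

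Of 20 further genes of cytotoxic and NK cells, 16 were tested, 13 with a fold change below 0 and 3 above, with 0 called, 0 at an unadjusted p under 0.05 and a median of -0.58. Without Ctrl replicate 2 the split was 7 below to 9 above, with a median of 0.25. Without Ctrl replicate 1 it was 14 to 2, with a median of -0.99 and 6 genes at an unadjusted p under 0.05, against the same 8.37%. Ncr1, which encodes the NK cell receptor NKp46, was lowest, with 11, 61 and 15 counts in Ctrl and 14, 18 and 9 in DTR (log2 fold change -1.33, SE 0.750, adjusted p = 0.662, edgeR). Gzmm, which encodes granzyme M, was highest and ran against Gzmb. It had 47, 17 and 20 counts in Ctrl and 75, 63 and 60 in DTR, and in CPM each DTR library stood above each Ctrl library (log2 fold change 1.04, SE 0.489, adjusted p = 0.631, edgeR), where 7.18% of all genes tested were higher in DTR without overlap. Ctrl replicate 2, the highest library for Gzmb, was the lowest for Gzmm.

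Among lists of other leukocytes, 19 pan-leukocyte genes were tested, 11 with a fold change below 0 and 8 above (median -0.05), from Itgb2 at -0.45 (SE 0.143) to Arhgap15 at 0.66 (SE 0.448). Il2rg, shared by several cytokine receptors and named here because of its value, was listed at 0 in every library and lies entirely within another gene on its strand. Of 16 macrophage genes tested, 10 were below and 6 above 0 (median -0.11), from Mrc1 at -0.57 (SE 0.195) to Cx3cr1 at 0.61 (SE 0.470). Of 7 dendritic cell genes tested, 1 was below and 6 above 0 (median 0.44), from Zbtb46 at -0.04 (SE 0.183) to Clec9a at 1.08 (SE 0.801). Leaving out 1 library moved these medians. Without Ctrl replicate 2 the pan-leukocyte median was 0.21, the macrophage median 0.09 and the dendritic cell median 0.83, and without Ctrl replicate 1 they were -0.29, -0.15 and 0.14. The pan-leukocyte median also moved to -0.17 without DTR replicate 3 and the dendritic cell median to 0.79 without Ctrl replicate 3. With at least 10 counts in every library the dendritic cell median was 0.11. B cell genes were sparse, with 3 of 8 tested, from Cd22 at -1.22 (SE 0.644) to Cd79a at 0.40 (SE 0.598). Of 8 neutrophil genes only Csf3r was tested, at -0.77 (SE 0.642). No gene of these lists was called.

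For the cells the sort selects or gates out, the fibroblast list had 2 of 10 genes below 0 and a median of 0.33, from Pdgfrb at -0.19 (SE 0.434) to Dcn at 1.02 (SE 0.542). The melanoma list had 7 of 10 below 0 and a median of -0.10, from Sox10 at -0.28 (SE 0.0979) to Mlana at 0.05 (SE 0.123). The fibroblast median was 0.04 without DTR replicate 3 and 0.90 without Ctrl replicate 1, and that of the melanoma list stayed between -0.20 and -0.05 when any 1 library was removed. Of 8 endothelial genes, the cells gated out with CD31, 5 were tested, 1 below and 4 above 0 (median 0.61, between 0.42 and 0.66 when any 1 library was removed), from Cdh5 at -1.53 (SE 0.956) to Tek at 1.84 (SE 0.778, adjusted p = 0.622, edgeR). Tek had 63.8 CPM in DTR replicate 3 against 4.18 to 14.8 CPM in the other libraries, and its log2 fold change was 0.42 without that library. Emcn, Cldn5 and Tie1, named for their low counts, were not over 3 counts in any library. No gene of these 3 lists was called.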

How the data were processed

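RNA-seq of PDPN+PDGFRα+ cells gave 6 libraries, grouped by the genotype in the sample labels. Per the labels and methods, the authors made stranded total RNA libraries, trimmed reads with cutadapt 3.4, aligned them to GRCm38 with STAR 2.7.3a and deposited raw counts per gene from featureCounts 2.0.1. Beside these the deposited file has a score for each library, the count divided by the authors' size factor and rounded, and the authors' DESeq2 fold changes and p-values, none of which were used.

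Counts were scaled with TMM factors and compared with edgeR 4.0.16 in R 4.3.3 (glmQLFit and glmQLFTest, two-sided, no covariates, Benjamini-Hochberg adjustment, called at an adjusted p under 0.05) over the 15133 genes that passed filterByExpr (minimum count 10, minimum total 15). The permutation tests used log2(CPM + 0.5) in scipy 1.17.1. Marker lists were summed as CPM. Spans, exon lengths and overlaps came from the GENCODE annotation of GRCm38, and of 27987 genes listed without a name 27841 were named by identifier. The fit was tested on simulated data. Alternatives were RLE size factors, library size alone, other filters on low counts, robust moderation, DESeq2 1.42.0, a replicate block, each library left out, other pseudocounts and, added after seeing the data, an offset on genomic span.

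The members and lists were chosen with earlier results of these data known. Named were the 10 members, the lowest and highest gene of each list, any gene called by edgeR, the 5 genes most like Ptprc, Adam12, Pdgfra and Pdpn. The 31 genes called by DESeq2's Wald test were not named on that ground. Genes outside this rule were picked with their values in view, as the text says.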

Additional observations from a re-analysis of the deposited data

How the results depend on the processing

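Members called remained at 0 of 10 in all 15 fits. Genes called were 0 except with DESeq2's Wald test (31) and without Ctrl replicate 1, where 4930509G22Rik was called (adjusted p = 0.0482, edgeR), so the counts with 1 library left out ran from 0 to 1. The cause was not tested. With 1 library left out, log2 fold changes ran from -1.43 to -0.82 for Cd3d, -1.44 to -0.0019 for Cd3e, -1.19 to 0.11 for Cd3g, -1.62 to 0.29 for Cd4, -1.04 to 0.20 for Cd8a, -0.92 to 1.02 for Cd8b1, -1.04 to 0.41 for Gzmb, -0.63 to 0.80 for Prf1, -0.67 to 0.19 for Nkg7 and -0.18 to 0.65 for Ptprc. With the replicate number as a block, Cd8b1 stood at 0.084, Prf1 at 0.23 and Ptprc at 0.27. Cd3d stood at -1.19 (unadjusted p = 0.0734, edgeR), Cd4 at -0.64, Cd3e at -0.54 and Cd3g at -0.39. Gzmb stood at -0.29, Cd8a at -0.21 and Nkg7 at -0.09. The median was then -0.25 for the members, -0.32 for the T cell receptor list and -0.29 for the cytotoxic list, the split of members was 7 below and 3 above 0, and 0 genes were called (1271 at an unadjusted p under 0.05). Libraries with the same number deviated together with r of 0.114, 0.132 and -0.042, so the number was not taken as a pairing. The offset on genomic span, chosen after seeing the data, put Ptprc at -0.013 and all 10 members below 0. With TMM-scaled CPM, 1239 genes (8.19%) were lower and 955 (6.31%) higher without overlap, against 961 and 1087 (7.18%) on library totals, and Cd3d was the member without overlap on both scales. A filter of at least 10 counts in every library gave no value for Cd4.

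With 3 libraries a group, the 95% intervals of members other than Ptprc reach down to folds of 0.332 or less. Those of members other than Cd3d and Ptprc also reach up to folds of 1.63 or more.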

Other observations

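Reads on the variable and joining segments of T cell receptor genes, which T cells recombine and other cells do not use, were looked at after the members' values were seen. A read was found on 43 segments in any library. In Ctrl 5, 26 and 13 segments had a read in replicates 1, 2 and 3, and in DTR 9, 9 and 8. Their reads summed to 20, 173 and 51 in Ctrl and to 84, 42 and 17 in DTR. Ctrl replicate 2, the highest library for 9 of 10 members, had the most segments and the most reads.

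Single segments were read in 1 or a few libraries. Trav8d-2 had 26 reads in Ctrl replicate 2 and 5 in DTR replicate 2, Trav15-1-dv6-1 had 23 reads in Ctrl replicate 2, and both were at 0 elsewhere. Trbv14 had 22 reads in Ctrl replicate 2 and at most 3 in any other library. Trbv29 had 12 reads in DTR replicate 1 and 1 in DTR replicate 3, and was at 0 in Ctrl. Trav4-4-dv10 was read in every library, with 5, 11 and 20 reads in Ctrl and 36, 24 and 6 in DTR. Similar segments can share reads, germline RNA was not told apart from recombined RNA, and a count of 0 allows up to 3 reads.

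The constant regions of gamma delta T cells were sparse. Tcrg-C2 had 0, 17 and 0 reads in Ctrl and 4, 10 and 0 in DTR, and Trdc, the constant region of the delta chain, had 0, 6 and 0 reads in Ctrl and 2, 4 and 11 in DTR.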
